A study of Mus musculus with 3 samples.

Results

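The 10 genes described here belong to the Wnt pathway and were taken as a listed set from the 31053 gene IDs measured cell by cell in 3 libraries of mouse ear skin. 7 encode secreted inhibitors (Wif1, Dkk2, Dkk3, Sfrp1, Sfrp2, Sfrp4 and Sostdc1) and 3 encode readouts or modulators of Wnt signalling (Axin2, Lef1 and Lgr6). Their levels were read in 7 classes of cells gated on the raw counts of a few marker genes. Each library stands for 1 condition and pools the mice of that condition. The first came from 8-week-old Langerin-DTA mice, called Lang-DTA below (4 males and 6 females), the second from 8-week-old wild-type C57BL/6J mice, called adult WT (6 males and 4 females), and the third from 4-week-old wild-type C57BL/6J mice, called young WT (5 males and 3 females). None was treated, and per the labels the WT mice of Lang-DTA experiments were littermates from matings of hemizygous males. In Lang-DTA mice a human Langerin regulatory sequence drives diphtheria toxin A, which kills epidermal Langerhans cells. The sorted populations (lymphatic endothelium, blood endothelium, CD45+ cells and CD45-CD31- cells) were mixed at equal shares, so the number of cells in a class reflects the sort as well as the tissue.

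Wnt proteins are secreted lipid-modified ligands that bind a Frizzled receptor with an LRP co-receptor and keep beta-catenin from being degraded. Beta-catenin then works with TCF and LEF factors in the nucleus to switch on target genes, among them Axin2, whose product feeds back to degrade beta-catenin. WIF1 and the SFRPs bind Wnt ligands outside the cell, whereas the Dickkopf proteins and SOSTDC1 bind the LRP co-receptors. In skin the pathway is known for its part in hair follicle growth, in the self-renewal of the epidermis and in the identity of dermal fibroblasts. In cartilage, WIF1 and other inhibitors hold Wnt signalling down.

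In GENCODE M21 annotation of GRCm38, Wif1 (ENSMUSG00000020218) lies at chr10:121033960-121100650 on the + strand, Dkk2 (ENSMUSG00000028031) at chr3:132085292-132180304 on the + strand and Dkk3 (ENSMUSG00000030772) at chr7:112116017-112159057 on the - strand. Sfrp1 (ENSMUSG00000031548) lies at chr8:23411502-23449632, Sfrp2 (ENSMUSG00000027996) at chr3:83766321-83774316, Sfrp4 (ENSMUSG00000021319) at chr13:19623104-19632994 and Sostdc1 (ENSMUSG00000036169) at chr12:36314139-36318452, all on the + strand. Axin2 (ENSMUSG00000000142) lies at chr11:108920349-108950783 and Lef1 (ENSMUSG00000027985) at chr3:131110471-131224356, both on the + strand, and Lgr6 (ENSMUSG00000042793) at chr1:134983301-135105276 on the - strand. Sfrp2, Axin2 and Lef1 each overlap an annotated antisense gene that the matrices also list (Gm26771, Gm11670 and Gm43352). Whether reads were counted by strand is not given in the sources used here, so the values of these 3 genes may include reads of the overlapping gene.

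Promoter windows from RefSeq (GRCm38.p6; 250 bases before to 50 after a start, 300 bases each) were found for 6 of the 10 genes, 9 windows in all, and were searched on both strands for CTTTGA and its reverse complement TCAAAG, the core that TCF and LEF factors are known to bind. Sostdc1, Dkk3, Sfrp1 and Sfrp4 were not among them. Of all 32851 RefSeq mouse promoter windows, 5257 (16.0%) held the motif. 1 of the 9 windows held it, an inner start of Lef1, with 2 matches. The windows of Wif1 and Dkk2 are shown because these inhibitors were found mostly in different cells of the Dpt gate, that of Axin2 because it is the common readout of the pathway, and that of Lef1 because it held the matches. The strand is + in each, capitals mark the motif, and a match or its absence says nothing about binding.
Wif1, chr10:121033754-121034053: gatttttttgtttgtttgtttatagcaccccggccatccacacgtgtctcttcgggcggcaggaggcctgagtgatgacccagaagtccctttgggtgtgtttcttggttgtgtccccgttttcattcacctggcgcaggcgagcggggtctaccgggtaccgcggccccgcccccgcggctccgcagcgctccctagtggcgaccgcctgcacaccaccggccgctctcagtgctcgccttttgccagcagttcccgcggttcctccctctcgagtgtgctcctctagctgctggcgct
Dkk2, chr3:132085042-132085341: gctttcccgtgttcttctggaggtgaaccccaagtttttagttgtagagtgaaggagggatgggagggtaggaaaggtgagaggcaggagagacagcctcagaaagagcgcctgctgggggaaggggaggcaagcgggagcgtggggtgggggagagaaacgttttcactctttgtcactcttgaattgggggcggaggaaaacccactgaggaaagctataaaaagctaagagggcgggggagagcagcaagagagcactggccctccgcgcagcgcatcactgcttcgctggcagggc
Axin2, chr11:108920099-108920398: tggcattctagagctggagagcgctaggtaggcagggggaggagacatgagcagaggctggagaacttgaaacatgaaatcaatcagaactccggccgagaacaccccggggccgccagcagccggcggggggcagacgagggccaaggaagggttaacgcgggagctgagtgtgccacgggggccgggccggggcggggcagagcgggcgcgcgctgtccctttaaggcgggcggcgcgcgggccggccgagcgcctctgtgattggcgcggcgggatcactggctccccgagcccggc
Lef1, inner start, chr3:131156044-131156343: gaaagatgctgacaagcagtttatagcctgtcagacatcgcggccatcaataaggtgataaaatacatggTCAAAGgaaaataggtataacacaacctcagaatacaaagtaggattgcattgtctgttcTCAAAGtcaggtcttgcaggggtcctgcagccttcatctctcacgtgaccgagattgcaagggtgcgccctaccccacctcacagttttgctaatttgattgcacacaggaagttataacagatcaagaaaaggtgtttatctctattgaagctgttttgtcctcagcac

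After filtering, 12941 Lang-DTA, 12621 adult WT and 12399 young WT cells were kept, from libraries of 124590777, 128595813 and 137441575 unique molecular identifiers (UMIs, counts of captured RNA molecules). The label of the Lang-DTA library was checked on the targeted cells: among cells with 2 or more Ptprc (CD45) UMIs and in no gate, 6 Lang-DTA cells had 2 or more UMIs of Cd207, the gene for Langerin, against 368 adult WT and 532 young WT cells. The libraries shared 39 to 50 cell barcodes in pairs. Doublets were called but kept, and their removal is 1 of the alternatives. Values are UMIs summed over the cells of a class and library and scaled to the total of that class (counts per 1e6 UMIs, CPM). With 1 library per condition there is no test between conditions, and every interval covers counting error only, not the difference between mice or pools. In sums over cells, fewer cells of a type and less RNA per cell cannot be told apart.

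The Col2a1 gate (3 or more UMIs of Col2a1, cartilage collagen) held 194 Lang-DTA, 109 adult WT and 499 young WT cells, and in every library all 10 chondrocyte markers stood at 10 CPM or more. The Angptl7 gate (2 or more UMIs) held 906, 299 and 350 cells in the same order, and 7 of the 8 markers of the tissue around cartilage could be measured. The Dpt gate (2 or more UMIs of dermatopontin) held 495 Lang-DTA, 387 adult WT and 426 young WT cells, with all 10 fibroblast markers at 10 CPM or more. Presence of markers did not separate these 3 gates. In every library the Angptl7 gate also held all 10 fibroblast and all 10 chondrocyte markers at that level. By summed CPM, the fibroblast markers were highest in the Dpt gate and the chondrocyte markers in the Col2a1 gate. In the Angptl7 gate the 7 markers of the tissue around cartilage summed to 8041, 8299 and 8818 CPM in the same order of libraries. In the Col2a1 gate they summed to 11683, 12677 and 7685 CPM. These 3 gates overlap: 26.1% of Lang-DTA, 19.4% of adult WT and 14.6% of young WT Dpt-gated cells also met the Angptl7 gate. The Col2a1 gate was met by 6.46% of Lang-DTA, 3.10% of adult WT and 15.5% of young WT Dpt-gated cells. It was also met by 5.08%, 7.02% and 36.6% of the Angptl7-gated cells. Keratinocytes (Krt5 and Krt14 at 0.3% of UMIs or more) were split into those with Krt79 and Krt17 at 0.1% or more, which were 91, 78 and 51 cells with markers of the upper follicle, and the other keratinocytes, which were 2651, 2408 and 1297 cells. The Prox1 gate for lymphatic endothelium (2 or more UMIs) held 2367 Lang-DTA, 1563 adult WT and 4072 young WT cells, and the gate for blood endothelium (3 or more UMIs of Cdh5 and Ptprb, none of Prox1 or Mmrn1) held 2651, 3506 and 1728. Ptprc-positive cells outside all gates, 1887 Lang-DTA, 2643 adult WT and 2892 young WT cells, served as the level that free RNA gives for genes not made there.

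**Figure D1:**
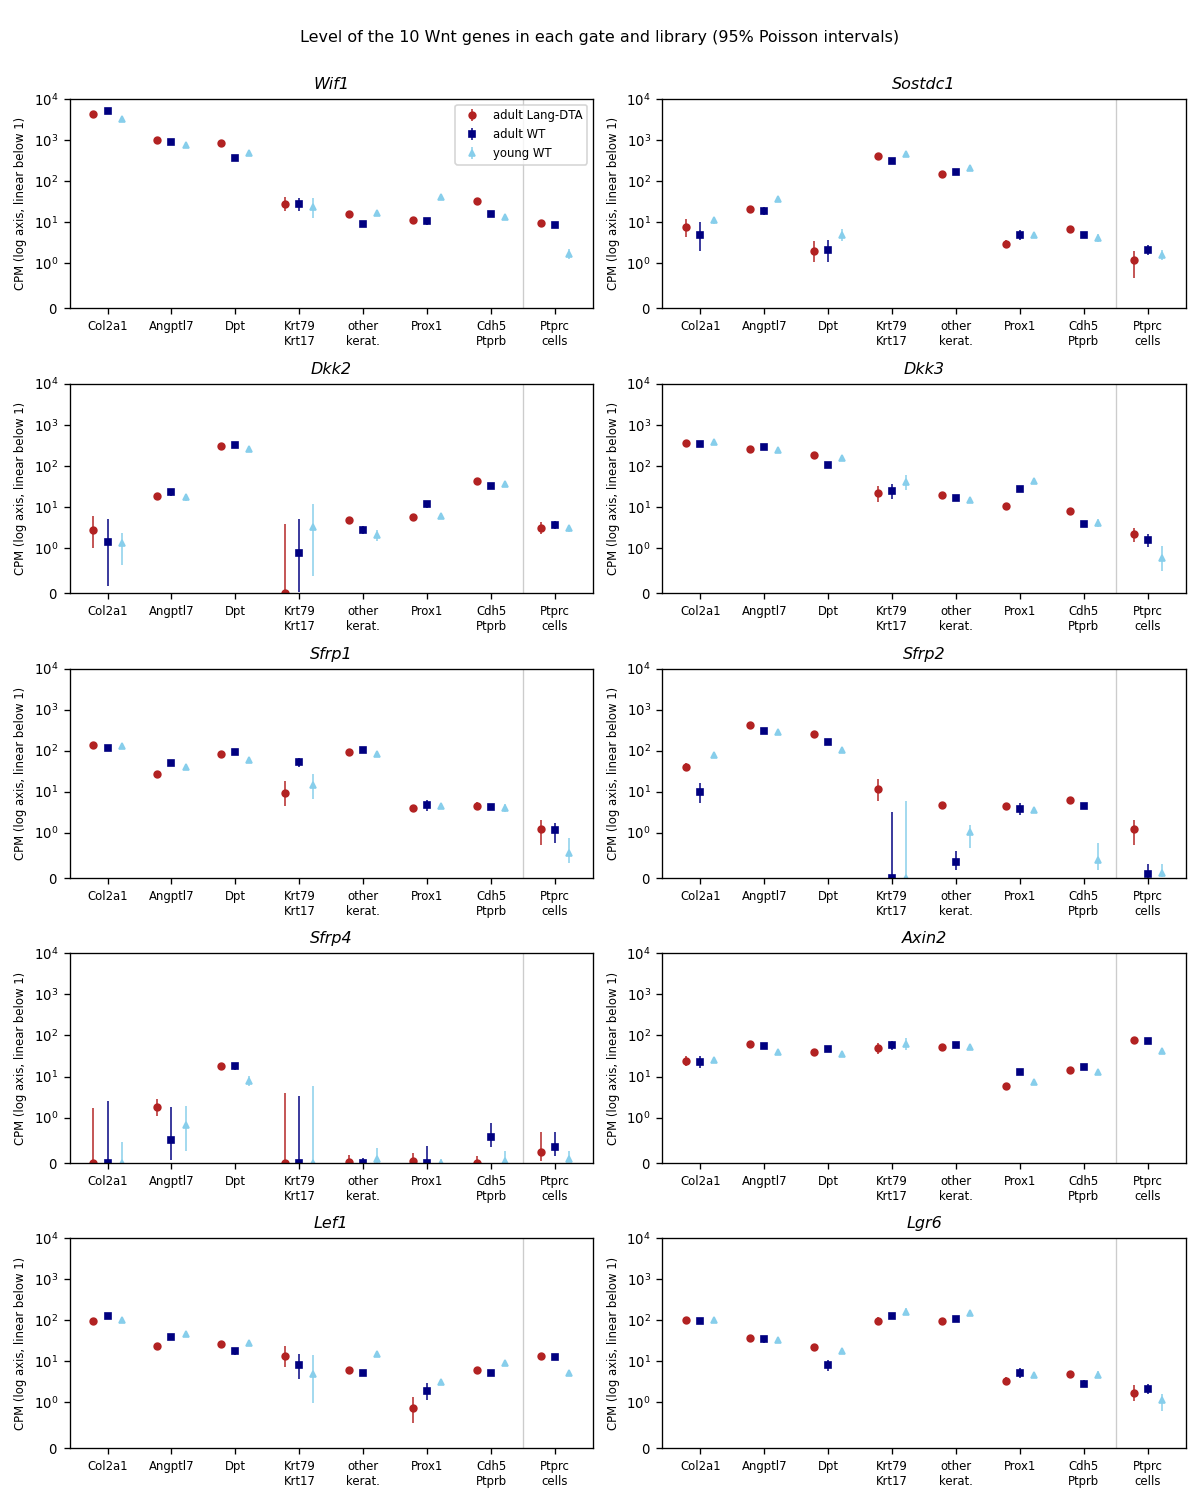
CPM (log axis, linear below 1) of the 10 genes in the 7 gates and in Ptprc-positive cells outside the gates, 1 point per library with its 95% Poisson interval. Wif1 runs from 3131 to 4965 CPM in the Col2a1 gate, whereas Sostdc1 is highest in Krt79 Krt17 keratinocytes, Dkk2 in the Dpt gate and Sfrp2 in the Angptl7 gate.

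Wif1 encodes a secreted protein that binds Wnt ligands. It stood at 4269 CPM in Lang-DTA, 4965 CPM in adult WT and 3131 CPM in young WT cells of the Col2a1 gate, and 99.0%, 99.1% and 97.2% of those cells held at least 1 of its UMIs. The Angptl7 gate came next, at 996 CPM in Lang-DTA, 867 CPM in adult WT and 749 CPM in young WT cells. Its range overlapped that of the Dpt gate, where Wif1 stood at 822 CPM in Lang-DTA, 351 CPM in adult WT and 476 CPM in young WT cells. Every other gate was at 40.4 CPM or below, against 9.30, 8.55 and 1.66 CPM in the Ptprc-positive cells of the same 3 libraries, and in those gates 5 cells held 31.9% to 100% of its UMIs. Where its transcripts sat differed between libraries: the Col2a1 gate held 30.8% of all Wif1 UMIs in the Lang-DTA library, 39.5% in the adult WT library and 78.1% in the young WT library, whereas the Angptl7 gate held 36.4%, 19.1% and 14.4%. These shares follow the number of cells sorted into each gate as well as the level per cell.

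Dkk2, a Dickkopf protein that binds LRP co-receptors, had its highest level in the Dpt gate, at 309 CPM in Lang-DTA, 319 CPM in adult WT and 252 CPM in young WT cells. Its second place was the blood endothelium gate, at 41.4 CPM in Lang-DTA, 32.8 CPM in adult WT and 35.3 CPM in young WT cells, where 12.7%, 12.0% and 15.2% of the cells held a UMI, against 0.848%, 0.757% and 0.622% of Ptprc-positive cells. No neighbouring ranges overlapped among its 4 highest gates, which were the Dpt gate, the blood endothelium gate, the Angptl7 gate (17.3 to 22.5 CPM) and the Prox1 gate (5.72 to 11.4 CPM). In the Col2a1 gate Dkk2 was at 2.74 CPM or below.

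Dkk3 is a divergent Dickkopf family member whose binding to LRP co-receptors is not established. It was highest in the Col2a1 gate, at 363 CPM in Lang-DTA, 347 CPM in adult WT and 372 CPM in young WT cells, followed without overlap by the Angptl7 gate at 259.8 CPM, 284 CPM and 246 CPM. The Dpt gate held it at 186 CPM in Lang-DTA, 103 CPM in adult WT and 150.2 CPM in young WT cells. The Prox1 gate of lymphatic endothelium and the Krt79 Krt17 keratinocytes (21.1, 24.0 and 40.1 CPM) came next with overlapping ranges. In the Prox1 gate Dkk3 stood at 10.6 CPM in Lang-DTA, 27.6 CPM in adult WT and 42.6 CPM in young WT cells. After each cell was thinned to 3000 UMIs, 3.19% of Lang-DTA, 7.25% of adult WT and 10.0% of young WT cells of that gate kept a Dkk3 UMI, against 0.402%, 0.238% and 0.213% of Ptprc-positive cells (unthinned, 6.51%, 11.8% and 22.5%, against 0.795%, 0.643% and 0.519%). In blood endothelium the level was 7.87 CPM or below.

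The secreted frizzled-related proteins carry a Frizzled-like domain that binds Wnt ligands. Sfrp1 was spread over several classes: its range in the Col2a1 gate (137 CPM in Lang-DTA, 117 CPM in adult WT and 133 CPM in young WT cells) lay above that of the other keratinocytes (91.7, 101 and 82.2 CPM), which overlapped the Dpt gate (83.0, 90.6 and 59.7 CPM). Because keratinocytes were numerous, the other keratinocytes held 64.2% of the Sfrp1 UMIs of the Lang-DTA library, 70.8% of those of adult WT and 47.1% of those of young WT.

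Sfrp2 was highest in the Angptl7 gate, at 425 CPM in Lang-DTA, 293 CPM in adult WT and 284 CPM in young WT cells. The Dpt gate came next, at 248 CPM, 162 CPM and 102 CPM, but these gates share cells. In Dpt-gated cells with no Angptl7, Col2a1 or Chad UMI, chosen after seeing the data, Sfrp2 stood at 92.7, 120.4 and 44.8 CPM. In the Col2a1 gate it stood at 40.2 CPM in Lang-DTA, 9.70 CPM in adult WT and 76.1 CPM in young WT cells, but 5 cells held 85.2% of its Lang-DTA UMIs there. Sfrp4 was rare. The Dpt gate held it at 17.7 CPM in Lang-DTA, 17.9 CPM in adult WT and 7.78 CPM in young WT cells, and with 96.4%, 90.4% and 92.1% of each library's Sfrp4 UMIs. No Sfrp4 UMI was seen in the Col2a1 gate, where a count of 0 allows up to 1.37 CPM in Lang-DTA, 2.08 CPM in adult WT and 0.383 CPM in young WT cells, nor in the Krt79 Krt17 keratinocytes.

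Sostdc1 (also known as Wise) inhibits both Wnt and BMP signalling and had its highest levels in keratinocytes. In Krt79 Krt17 keratinocytes it stood at 393 CPM in Lang-DTA, 300.2 CPM in adult WT and 458 CPM in young WT cells, and the next class, the other keratinocytes, stood at 145, 162 and 203 CPM without overlap. A UMI was found in 67.0% of Lang-DTA, 66.7% of adult WT and 70.6% of young WT Krt79 Krt17 cells, although 5 cells held 36.4% to 42.5% of the UMIs. The Angptl7 gate followed at 20.7 CPM in Lang-DTA, 18.8 CPM in adult WT and 35.5 CPM in young WT cells. In the remaining gates Sostdc1 was at 10.9 CPM or below, and in Ptprc-positive cells at 1.18 to 2.09 CPM.

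Axin2, the feedback inhibitor that is used as a readout of canonical Wnt signalling, was spread over many classes. The ranges of the Krt79 Krt17 keratinocytes (48.6 CPM in Lang-DTA, 57.7 CPM in adult WT and 62.5 CPM in young WT cells), the Angptl7 gate (60.8, 56.6 and 40.4 CPM) and the other keratinocytes (51.2, 57.2 and 52.5 CPM) overlapped. The Ptprc-positive cells outside the gates overlapped these ranges, at 75.9 CPM in Lang-DTA, 72.3 CPM in adult WT and 41.4 CPM in young WT cells, so they give no free-RNA level for Axin2. Within them, cells with 2 or more UMIs of Cd3e and Trdc together, genes of T cells and of gamma-delta T cells, held 100.4 CPM in the Lang-DTA library (1402 cells), 106 CPM in adult WT (1690 cells) and 85.1 CPM in young WT (1477 cells). Cells with 2 or more Cd207 UMIs held no Axin2 UMI in Lang-DTA (6 cells), 6.97 CPM in adult WT and 4.68 CPM in young WT, and the myeloid cells with 5 or more Lyz2 UMIs held 0.475 CPM in Lang-DTA, 1.13 CPM in adult WT and 0.372 CPM in young WT. Axin2 was lowest in the Prox1 gate, at 5.76 CPM in Lang-DTA, 13.1 CPM in adult WT and 7.26 CPM in young WT cells.

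Lef1, the DNA-binding partner of beta-catenin and itself a Wnt target, was highest in the Col2a1 gate, at 94.2 CPM in Lang-DTA, 129 CPM in adult WT and 101 CPM in young WT cells. The Angptl7 gate (24.1 CPM in Lang-DTA, 38.8 CPM in adult WT and 46.8 CPM in young WT cells) and the Dpt gate (26.1, 17.7 and 27.9 CPM) overlapped. Lgr6, an R-spondin receptor that marks stem cells of the upper follicle and epidermis, had overlapping ranges in Krt79 Krt17 keratinocytes (97.2 CPM in Lang-DTA, 131 CPM in adult WT and 163 CPM in young WT cells), in the other keratinocytes (96.6, 108 and 154 CPM) and in the Col2a1 gate (101, 98.4 and 102 CPM). In the Col2a1 gate 39.7% of Lang-DTA, 52.3% of adult WT and 52.5% of young WT cells held an Lgr6 UMI, against 0.530%, 0.681% and 0.380% of Ptprc-positive cells.

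Within the Dpt gate Wif1 was found together with Dkk3 and mostly apart from Dkk2. After thinning to 3000 UMIs, Dpt-gated cells with a Wif1 UMI also held Dkk3 in 62.5% of Lang-DTA (105 of 168 cells), 62.2% of adult WT (46 of 74) and 63.5% of young WT (66 of 104) cells, whereas Dpt-gated cells without Wif1 held Dkk3 in 18.1%, 12.9% and 16.5%. Dkk2 showed the opposite pattern: it was found in 4.76% of Lang-DTA, 2.70% of adult WT and 1.92% of young WT cells with Wif1, and in 28.9%, 30.9% and 23.9% of the cells without. The exact binomial intervals of both pairs were apart in each of the 3 libraries. In the Angptl7 gate, Sfrp2 was found in 26.9% of Lang-DTA, 14.3% of adult WT and 16.2% of young WT cells with Wif1, and in 45.4%, 32.4% and 38.3% of cells without, again with separate intervals in each library. Dkk3 in that gate was found in 52.8%, 61.4% and 55.1% of cells with Wif1 and in 42.2%, 42.9% and 43.0% of those without, and the intervals were apart in the adult libraries only.

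**Figure D2:**
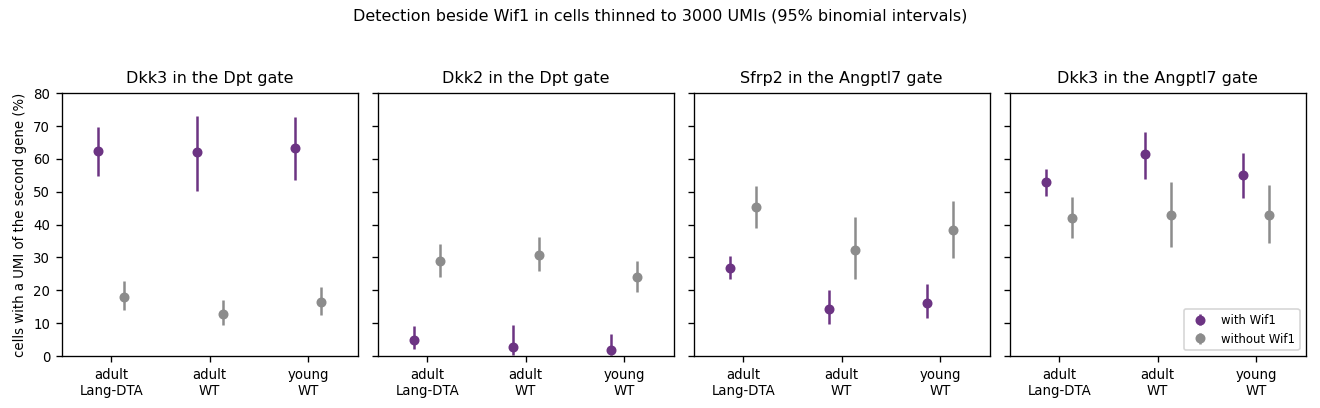
Share of cells, thinned to 3000 UMIs, with a UMI of a second gene among cells with Wif1 (purple) and without Wif1 (grey), per library with 95% binomial intervals. In the Dpt gate Dkk3 is in over 62% of the cells with Wif1 and Dkk2 is in under 5% of them, in all 3 libraries.

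The Dpt-gated cells with and without Wif1, and those with and without Dkk2, also differed in other genes. With a Wif1 UMI, the 10 chondrocyte markers summed to 2755 CPM in Lang-DTA, 2704 CPM in adult WT and 3836 CPM in young WT cells. Without one, they summed to 201, 115 and 210.0 CPM. Lef1 was at 56.9 CPM in Lang-DTA, 80.5 CPM in adult WT and 73.5 CPM in young WT cells with Wif1 and at 5.51, 2.58 and 7.56 CPM in those without, and Lgr6 at 47.8, 32.2 and 47.4 CPM with Wif1 and at 4.96, 2.15 and 5.43 CPM without. Pi16, a marker of adventitial and fascial fibroblasts, was higher in cells with Dkk2 than in those without. It stood at 390.0 CPM in Lang-DTA, 300.0 CPM in adult WT and 188 CPM in young WT cells with Dkk2, and at 174, 137 and 29.7 CPM in those without. Axin2 showed the same order, at 63.7 CPM in Lang-DTA, 71.5 CPM in adult WT and 75.1 CPM in young WT cells with Dkk2 and at 27.8, 24.1 and 18.7 CPM without. These splits use UMIs at full depth, and the median depth was 13298, 16162 and 20818 UMIs with Dkk2 against 10491, 12495 and 15048 without, in the same order of libraries.

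Lang-DTA was then compared with adult WT, which asks what differs in skin that has grown without Langerhans cells. A value was called higher or lower when the CPM of the libraries were at least 1.5-fold apart with at least 100 UMIs over both. Of the 70 values (10 genes in 7 gates), 53 had the 100 UMIs, and of these 11 (20.8%) were higher and 7 (13.2%) lower in Lang-DTA. Over all gene-by-gate values with 100 UMIs, 6.99% were higher and 4.93% lower. The members, lists and gates were chosen with earlier results of these data known. Shares set beside those of all genes, here and below, are therefore description only. Of the 18 called values, 5 stayed past 1.5-fold in the same direction under all 10 alternative ways of choosing and scaling the cells: Wif1, Dkk3 and Lgr6 in the Dpt gate, all higher, and Dkk3 and Axin2 in the Prox1 gate, both lower.

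**Figure D3:**
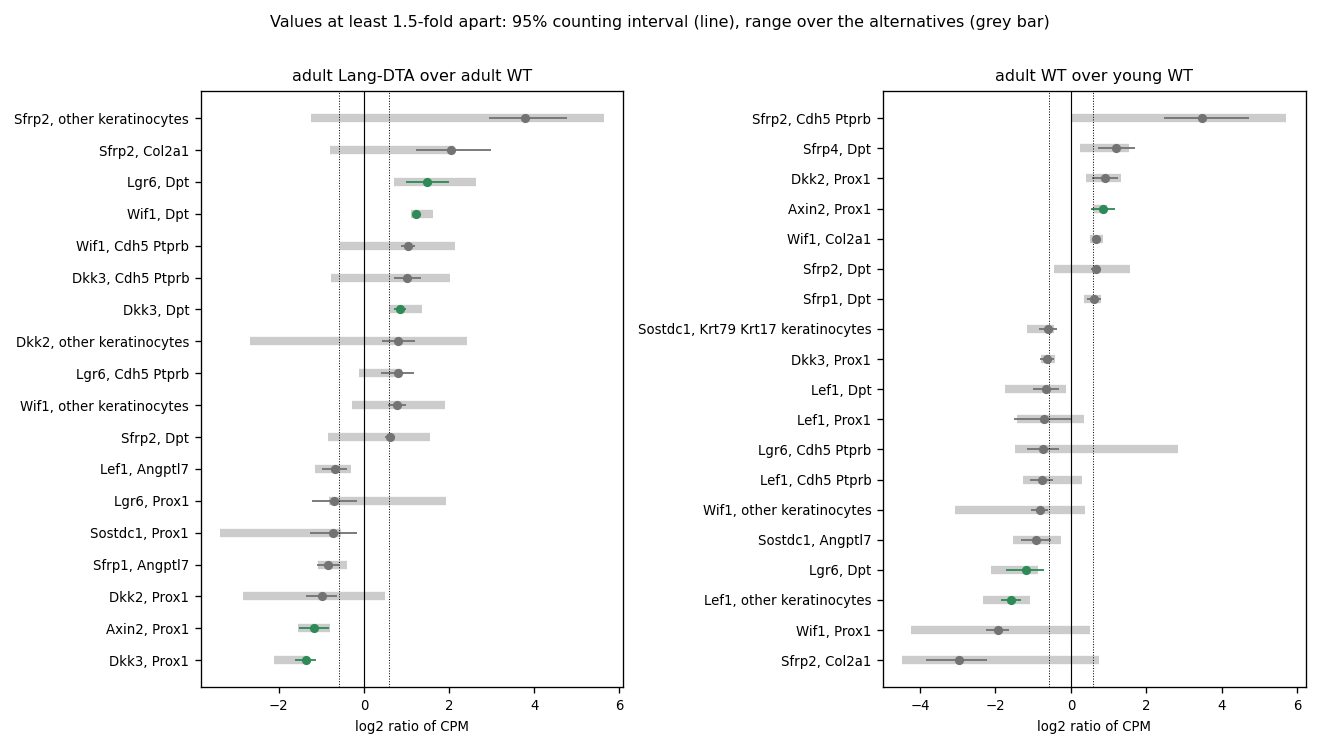
log2 ratios of CPM for every called value, Lang-DTA over adult WT on the left and adult WT over young WT on the right, with the 95% counting interval (thin line), the range over the alternatives that gave a ratio (grey bar) and dotted lines at 1.5-fold. Green points stayed past 1.5-fold under every alternative: 5 on the left, among them Wif1 in the Dpt gate at 1.23 and Dkk3 in the Prox1 gate at -1.37, and 3 on the right.

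In the Dpt gate 4 of 9 values were higher in Lang-DTA and 0 lower, where 4.93% of all genes were higher and 2.97% lower. Wif1, at 822 CPM in Lang-DTA against 351 CPM in adult WT cells, had a log2 ratio of 1.23 (1.15 to 1.30). A Wif1 UMI was found in 203 of 495 Lang-DTA cells of the gate (41.0%) and in 89 of 387 adult WT cells. Dkk3 was higher with it, at 186 CPM in Lang-DTA against 103 CPM in adult WT (log2 ratio 0.85, 0.71 to 0.997), as was Lgr6, at 22.1 against 7.98 CPM (1.47, 0.98 to 1.99). Among the Dpt-gated cells with a Wif1 UMI, Dkk3 stood at 365 CPM in Lang-DTA and 375 CPM in adult WT. The other called value, Sfrp2 (248 CPM in Lang-DTA, 162 CPM in adult WT; log2 ratio 0.62), turned to -0.85 when cells of more than 1 gate were left out. Dkk2 (-0.05, -0.14 to 0.05), Sfrp1 (-0.13), Sfrp4 (-0.02) and Axin2 (-0.21) were not called, and Lef1 missed the fold at 0.56 (0.19 to 0.93).

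Markers of other cell types moved with these values, and their part was not tested. The 10 chondrocyte markers summed to 1224 CPM in the Lang-DTA and 618 CPM in the adult WT Dpt gate, with 10 and 8 of them at 10 CPM or more and none at 0. The 7 measured markers of the tissue around cartilage summed to 3331 CPM in Lang-DTA and 2102 CPM in adult WT, the 6 pericyte markers to 313 and 784 CPM, and the 10 fibroblast markers to 37818 and 51759 CPM. In an alternative chosen after seeing the data, cells with any Angptl7, Col2a1 or Chad UMI were left out, which kept 228 Lang-DTA and 255 adult WT cells (46.1% and 65.9% of the gate). Wif1 then stood at 89.2 CPM in Lang-DTA against 24.4 CPM in adult WT (log2 ratio 1.87, 1.53 to 2.22). Its UMIs lay in 9.65% (6.15 to 14.2%) of those Lang-DTA and 3.53% (1.63 to 6.59%) of those adult WT cells. The intervals of these shares overlap. The ratio interval counts UMIs of the same cell as independent, so it does not cover their clumping in few cells. Dkk3 stood at 50.9 against 22.4 CPM (1.19, 0.80 to 1.58), with a UMI in 23.7% of those Lang-DTA and 18.8% of those adult WT cells. Dkk2 stood at 606 CPM in Lang-DTA against 446 CPM in adult WT (0.44), and Sfrp2 at 92.7 against 120.4 CPM (-0.38). A Dkk2 UMI was found in 48.7% of those Lang-DTA and 54.5% of those adult WT cells, and an Sfrp2 UMI in 18.4% and 20.8%. The intervals of the shares overlap for all 3 of these genes.

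**Figure D4:**
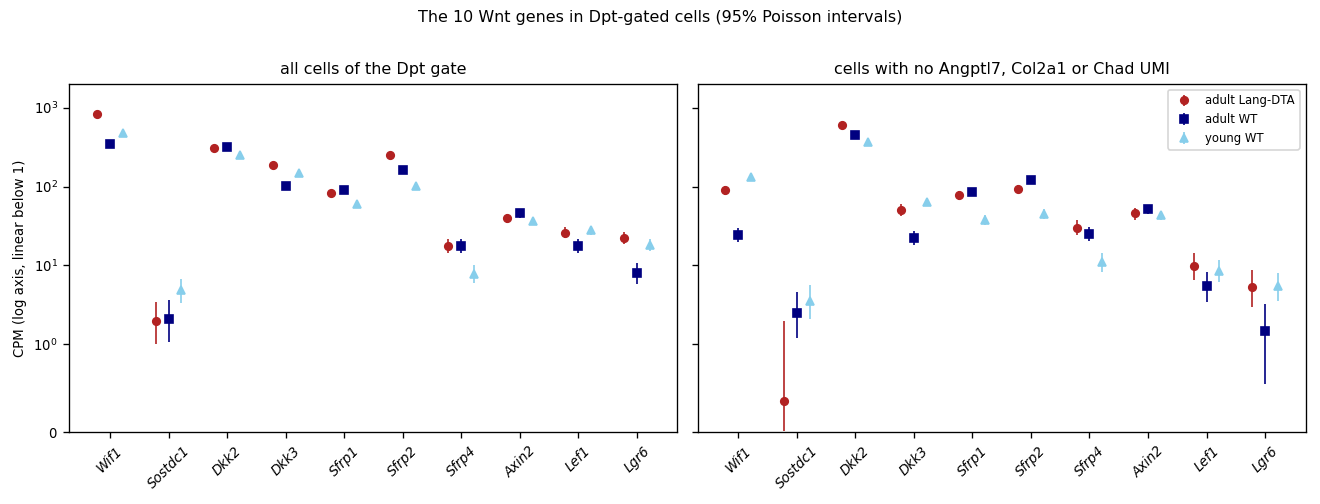
CPM (log axis, linear below 1) of the 10 genes in all cells of the Dpt gate (left) and in the cells of that gate with no Angptl7, Col2a1 or Chad UMI (right), 1 point per library with 95% Poisson intervals. Adult WT has the lowest Wif1 and Dkk3 of the 3 libraries in both panels, at 24.4 and 22.4 CPM on the right.

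In the Prox1 gate 5 of 8 values were lower in Lang-DTA and 0 higher. This gate stood apart as a whole between the adult libraries: 22.4% of all its genes were higher and 17.8% lower, the median cell had 9496 UMIs in Lang-DTA and 5171 UMIs in adult WT, and the 7 lymphatic markers, all at 10 CPM or more in both, summed to 6104 CPM in Lang-DTA and 14097 CPM in adult WT. Dkk3 stood at 10.6 CPM in Lang-DTA against 27.6 CPM in adult WT cells, a log2 ratio of -1.37 (-1.62 to -1.12). Axin2 stood at 5.76 CPM in Lang-DTA against 13.1 CPM in adult WT (-1.18, -1.53 to -0.83), from 144 and 128 UMIs. Thinned to 3000 UMIs, 1.05% of Lang-DTA, 2.82% of adult WT and 1.80% of young WT cells kept an Axin2 UMI. The keratinocyte markers summed to 499.8 CPM in Lang-DTA and 818 CPM in adult WT Prox1-gated cells (8 and 9 of 10 at 10 CPM or more) and the 4 erythroid genes to 99.7 and 183 CPM (3 and 4 of 4). The 6 immune markers summed to 166 CPM in Lang-DTA and 292 CPM in adult WT (5 and 4 of 6) and the 9 of the dermal papilla and sheath to 191 and 369 CPM (2 of 9 in both). Not all lists were lower: the 6 pericyte markers summed to 72.1 CPM in Lang-DTA and 37.4 CPM in adult WT. The 7 upper follicle markers summed to 149.8 and 100.5 CPM. The 7 blood endothelium markers summed to 2969 and 2639 CPM, and the 10 chondrocyte markers to 53.3 and 48.4 CPM. The part of these markers was not tested. Dkk2 (5.72 CPM in Lang-DTA, 11.4 CPM in adult WT; log2 ratio -1.0), Sostdc1 (-0.73) and Lgr6 (-0.69) were also lower, but Dkk2 turned to 0.50 in female-called cells, Lgr6 turned to 1.93 there, and Sostdc1 lost the 1.5-fold without doublet calls.

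In the Angptl7 gate, where 2.62% of all genes were higher and 2.11% lower, 2 of 9 values were lower: Sfrp1 at 27.3 CPM in Lang-DTA against 49.0 CPM in adult WT (log2 ratio -0.84, -1.11 to -0.58), and Lef1 at 24.1 against 38.8 CPM (-0.69, -0.98 to -0.39). Both missed 1.5-fold without the 5 cells that held the most UMIs. Wif1 in that gate was not called (0.20, 0.14 to 0.26), and Sfrp2 had a log2 ratio of 0.54 (0.44 to 0.63). In the Col2a1 gate 1 of 6 values was called (3.12% of all genes higher, 2.29% lower), Sfrp2 at 2.05, and without cells of more than 1 gate it had 2 UMIs in Lang-DTA and 0 in adult WT, too few for a ratio. In the other keratinocytes 3 of 9 values were higher (2.71% and 1.29% of all genes higher and lower), namely Sfrp2 at 3.78, Dkk2 at 0.80 and Wif1 at 0.78, all at 15.6 CPM or below and all turned below 0 without cells of more than 1 gate. In blood endothelium 3 of 9 were higher (4.98% and 2.03%), Wif1 at 1.03, Dkk3 at 1.01 and Lgr6 at 0.79, and all turned below 0 without doublet calls. In Krt79 Krt17 keratinocytes 0 of 3 values were called, where 3.01% of all genes were higher and 3.03% lower, and Sostdc1 had a log2 ratio of 0.39 (0.17 to 0.61).

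Adult WT was compared with young WT, which asks what differs between 8 and 4 weeks of age. This comparison shares the adult WT library with the one above, so a high or low value there enters both. 54 of the 70 values had 100 UMIs, of which 7 (12.96%) were higher and 12 (22.2%) lower in adult WT, against 6.24% and 8.01% of all gene-by-gate values. 3 of the 19 called values stayed past 1.5-fold under all alternatives: Lef1 in the other keratinocytes and Lgr6 in the Dpt gate, both lower, and Axin2 in the Prox1 gate, which was higher. The median log2 ratio of all genes was negative in every gate, from -0.12 in the Dpt gate to -0.05 in the Angptl7 gate. It was -0.10 in the other keratinocytes, the Prox1 gate and blood endothelium. Ratios are read against those shifts.

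In the other keratinocytes 2 of 8 values were lower in adult WT and 0 higher (6.11% of all genes lower, 5.24% higher). Lef1 stood at 5.16 CPM in adult WT against 15.5 CPM in young WT cells, a log2 ratio of -1.59 (-1.86 to -1.32), and 3.16% of adult WT against 7.40% of young WT cells held a UMI. The 8 markers of hair matrix and shaft, 1 of which reached 10 CPM, summed to 29.2 CPM in adult WT and 35.5 CPM in young WT cells of the same gate. Lgr6, at 108 CPM in adult WT against 154 CPM in young WT, missed the call at -0.51 (-0.58 to -0.44), and Axin2 had a ratio of 0.12 (0.02 to 0.23). Wif1, at 9.10 CPM in adult WT against 16.2 CPM in young WT (-0.83), turned to 0.36 without cells of more than 1 gate. In Krt79 Krt17 keratinocytes Sostdc1 was the 1 of 3 values called lower (9.32% of all genes lower, 8.98% higher), at 300.2 CPM in adult WT against 458 CPM in young WT (-0.61, -0.84 to -0.38), from 78 and 51 cells, and it missed 1.5-fold in male-called cells and under median-of-ratios scaling.

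In the Dpt gate 3 of 9 values were higher and 2 lower in adult WT, where 5.48% of all genes were higher and 9.12% lower. The frizzled-related genes were the higher ones. Sfrp1 stood at 90.6 CPM in adult WT against 59.7 CPM in young WT (log2 ratio 0.60, 0.42 to 0.79), Sfrp2 at 162 against 102 CPM (0.66, 0.52 to 0.80) and Sfrp4 at 17.9 against 7.78 CPM (1.20, 0.72 to 1.69). None of the 3 held past 1.5-fold in all alternatives, and Sfrp2 turned to -0.46 in female-called cells. In the cells with no Angptl7, Col2a1 or Chad UMI, a choice made after seeing the data, their ratios were 1.17, 1.43 and 1.17. A UMI of Sfrp1 was found in 34.1% of those adult WT and 20.7% of those young WT cells. For Sfrp2 the shares were 20.8% and 19.2%, and for Sfrp4 9.41% and 7.75%, with overlapping intervals for both genes. Lgr6 was lower, at 7.98 CPM in adult WT against 18.4 CPM in young WT (-1.20, -1.72 to -0.71), as was Lef1, at 17.7 against 27.9 CPM (-0.66), which missed 1.5-fold under median-of-ratios scaling, with cells of 1 gate only and in male-called cells. Wif1 (-0.44) and Dkk3 (-0.54) were not called in the whole gate, but in the restricted cells Wif1 stood at 24.4 CPM in adult WT against 132 CPM in young WT (-2.43, -2.75 to -2.12), with a UMI in 3.53% of 255 adult WT and 9.96% of 271 young WT cells, and Dkk3 at 22.4 against 62.9 CPM (-1.49). The chondrocyte markers summed to 618 CPM in adult WT and 1328 CPM in young WT Dpt-gated cells (8 and 9 of 10 at 10 CPM or more), the 6 pericyte markers to 784 and 2322 CPM (all 6 in both) and the 6 immune markers to 44.6 and 364 CPM (2 and 6 of 6), and their part was not tested.

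In the Col2a1 gate Wif1 was higher in adult WT, at 4965 CPM against 3131 CPM in young WT (log2 ratio 0.67, 0.63 to 0.70), and Sfrp2 was lower (-2.97), 2 of 7 values, where 7.07% of all genes were higher and 11.7% lower. Wif1 missed 1.5-fold without cells of more than 1 gate and without the 5 cells with most UMIs. Without cells of more than 1 gate, Sfrp2 had 0 UMIs in adult WT and 4 in young WT, too few for a ratio. In the Angptl7 gate Sostdc1 was the 1 of 9 values called, where 6.27% of all genes were higher and 5.21% lower. It was lower, at 18.8 CPM in adult WT against 35.5 CPM in young WT (-0.92, -1.32 to -0.54), and missed 1.5-fold in female-called cells. In the Prox1 gate 2 of 9 values were higher and 3 lower in adult WT (7.61% and 8.82% of all genes). Adult WT had the highest Axin2 of the 3 libraries there. Axin2 stood at 13.1 CPM in adult WT against 7.26 CPM in young WT (0.85, 0.53 to 1.16) and Dkk3 at 27.6 against 42.6 CPM (-0.63, -0.82 to -0.44), the second of which missed 1.5-fold under 7 of the 10 alternatives. Wif1 in that gate had a ratio of -1.94 but turned to 0.50 without cells of more than 1 gate, and Lef1 (-0.72) turned to 0.35 there. Dkk2 (0.91) missed 1.5-fold with gate thresholds doubled, with gates on thinned cells and in female-called cells. In blood endothelium 1 of 9 values was higher and 2 lower (5.06% and 7.13% of all genes). Sfrp2 was higher at 3.47, with 91.9% of its adult WT UMIs in 5 cells. Lef1 was lower at -0.77 but turned to 0.29 in female-called cells. Lgr6, lower at -0.74, stayed past 1.5-fold under 5 of the 10 alternatives and changed sign in 3.

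Outside the gates, Axin2 in the Ptprc-positive cells stood at 72.3 CPM in adult WT against 41.4 CPM in young WT (log2 ratio 0.80, 0.70 to 0.91), whereas within the cells with Cd3e and Trdc it stood at 106 and 85.1 CPM. These cells made up 1690 of the 2643 adult WT and 1477 of the 2892 young WT Ptprc-positive cells. Between Lang-DTA and adult WT the Axin2 ratio in Ptprc-positive cells was 0.07 (-0.05 to 0.19).

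The rest of the pathway was read from 8 lists of 91 genes. Among ligands, Wnt4 was highest in the other keratinocytes (183 CPM in Lang-DTA, 177 CPM in adult WT and 220.3 CPM in young WT cells), as were Wnt3, Wnt10a and Wls, which carries Wnt proteins to the surface (427, 451 and 408 CPM). Wnt5a was highest in the Dpt gate at 61.6, 67.7 and 53.1 CPM. The R-spondin gene Rspo1 and the receptors Fzd1 and Lrp6 were highest in the Angptl7 gate. Fzd6 was highest in the Prox1 gate and Fzd4, a receptor of vascular development, in blood endothelium. Rspo3 had its highest mean in the Prox1 gate, at 16.9 CPM in Lang-DTA, 34.9 CPM in adult WT and 22.0 CPM in young WT. In the other keratinocytes Rspo3 stood at 24.8 CPM in adult WT. Its log2 ratio for Lang-DTA over adult WT was 0.20 there, so in Lang-DTA those cells stood above the Prox1 gate. Of the other secreted inhibitors, Frzb was highest in the Col2a1 gate (112 CPM in Lang-DTA, 105 CPM in adult WT and 80.0 CPM in young WT cells) and Igfbp4 in the Dpt gate (409, 407 and 322 CPM).

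Over these lists, 24 of 366 values were higher and 30 lower in Lang-DTA than in adult WT, where 6.99% and 4.93% of all gene-by-gate values were, with a median log2 ratio of -0.01. The Prox1 gate gave 4 of the higher and 25 of the lower ones out of 53 values, where 22.4% of all genes were higher and 17.8% lower. The list median there was -0.54 and the median of all genes 0.06. Tcf7l1 and Tcf7l2, DNA-binding partners of beta-catenin, were lower (58.4 CPM in Lang-DTA against 126 CPM in adult WT, and 129.6 against 239 CPM), as were Wnt5a (2.72 against 11.7 CPM) and Rspo3 (16.9 against 34.9 CPM). Ctnnb1, which encodes beta-catenin, was higher at 429 CPM in Lang-DTA against 242 CPM in adult WT, and the cell-cycle gene Ccnd1 at 229 against 103 CPM. Outside that gate, Lgr5, the relative of Lgr6, was higher in the Angptl7 gate, at 159 CPM in Lang-DTA against 68.1 CPM in adult WT (1.23, 1.04 to 1.42). Bambi, a pseudoreceptor of the TGF-beta family, was higher in the Dpt gate at 94.1 against 39.4 CPM (1.26). It was also higher in the Col2a1 gate, its highest gate, at 227 against 142 CPM (0.67). The chondrocyte markers of the Dpt gate summed to 1224 CPM in Lang-DTA and 618 CPM in adult WT, and their part was not tested.

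Between adult and young WT, 25 of 392 list values were higher and 51 lower, where 6.24% and 8.01% of all gene-by-gate values were, with a median log2 ratio of -0.16. Tle4, a co-repressor that binds TCF factors, was called higher in adult WT in all 7 gates, for example at 232 CPM in adult WT against 103 CPM in young WT in the other keratinocytes (log2 ratio 1.17) and at 143 against 54.1 CPM in the Angptl7 gate (1.40). Of the values of the receptor list 24 of 105 were lower and 4 higher, read against the same 8.01% and 6.24%. The lower ones included Lgr5 in the Angptl7 gate, at 68.1 CPM in adult WT against 125 CPM in young WT (-0.88), and Lgr4 in Krt79 Krt17 keratinocytes, at 188 against 345 CPM (-0.87). In the other keratinocytes the ligand Wnt5a was higher, at 11.8 CPM in adult WT against 2.99 CPM in young WT (1.98), and Wnt6 lower, at 5.71 against 13.1 CPM (-1.20).

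The genes whose levels ran most like each member were found by the Pearson correlation of log2(CPM + 1) over 21 values (7 gates in 3 libraries), which share libraries, depth and cells of overlapping gates. Among 12266 genes, Wif1 was closest to Gm19935 (r = 0.99), Angpt4 and Mia, Dkk2 to Cadm3 (0.96), Ebf2 and Ifi211, and Dkk3 to Chd9 (0.96), Rnf180 and Il11ra1. Sfrp1 was closest to Ptges (0.96), Robo1 and Pygl, Sfrp2 to Wisp2 (0.98), Trhde and Svep1, Sfrp4 to Gabrb2 (0.98), Adra1b and Vstm2a, and Sostdc1 to Il17rc (0.98), Vdr and Evpl. Axin2 was closest to Rab7b (0.95), Frk and Trnp1, Lef1 to Pygb (0.96), Slc1a3 and Dock8, and Lgr6 to Rps6ka6 (0.97), Epn3 and C1qtnf4.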

How the data were processed

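Per the file headers, the deposited values are counts of UMIs, one per gene and called barcode and not normalized, from Cell Ranger 8.0.1 (8.01 in the submitters' processing notes, which also name GRCm38). Which annotation release was used, whether intronic reads were counted and whether free RNA was removed is not stated in those sources. An imiquimod condition is not analysed here. Cells with under 500 genes, under 1000 UMIs or over 10% mitochondrial UMIs were left out. Gates were read on raw UMIs, and a cell may meet more than 1. UMIs were summed per gate and library and given as CPM with exact Poisson intervals, shares with exact binomial (Clopper-Pearson) intervals and ratios with exact conditional intervals, all at 95% and for counting error only. No test between conditions is possible with 1 library each, so no p-value is given. Doublet calls, made per library against artificial pairs of cells, numbered 701 in Lang-DTA, 687 in adult WT and 638 in young WT. Male-called cells had a UMI of a Y-linked gene and none of Xist, and female-called cells the reverse. Ratios were recomputed with all barcodes, with cells of 1 gate only, with gate thresholds doubled, with gates on cells thinned to 3000 UMIs, without doublet calls, as means of per-cell CPM, with median-of-ratios scaling, in either sex and, added after seeing the data, without the 5 cells with most UMIs of a gene. Calls were also counted at 2-fold and at a minimum of 30 UMIs. These alternatives covered the 10 members only. All 10 members are named. List genes are named for levels at 30 CPM or more and for differences where called, and for each member the 3 genes of highest correlation. The members, lists and gates were chosen with earlier results of these data known. The call step was also run on counts drawn with counting error only, from the pooled levels of the adult libraries in each gate, with known changes added. Those counts hold no clumping of UMIs in few cells and no difference between pools, so they cannot show how either affects the calls. The software was Python 3.11.15 with matplotlib 3.10.9, NumPy 2.4.6, pandas 2.3.3, scikit-learn 1.9.0 and SciPy 1.17.1.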

Additional observations from a re-analysis of the deposited data

Results flagged for a closer look

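Dkk3 went opposite ways in 2 classes between Lang-DTA and adult WT: its log2 ratio was 0.85 in the Dpt gate (186 CPM in Lang-DTA, 103 CPM in adult WT) and -1.37 in the Prox1 gate (10.6 CPM in Lang-DTA, 27.6 CPM in adult WT), with 1 library on each side. The difference between the classes was not tested, because there is no replicate library.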

How the results depend on the processing

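No paired analysis was possible because each condition has 1 library. Of 37 called ratios, 8 stayed past 1.5-fold in every alternative. Over 107 ratios and their alternatives, 737 values stayed inside the counting interval of the reported ratio and 298 moved outside it. Another 27, all of called ratios, changed sign. Sign changes were counted for the 37 called ratios only, so any of the other ratios are among the 737 and 298. A further 8 values had too few UMIs for a ratio (5 of them of Sfrp2 where it was called). A 0 in 1 library was set to 3 UMIs, which makes such a ratio a bound, and no ratio was taken where that bound ran against the counts or both libraries held 3 UMIs or fewer. For Lang-DTA over adult WT, the 11 higher values became 5 with cells of 1 gate only, 5 without doublet calls, 5 in male-called cells and 6 at 2-fold. The 7 lower values became 3 with gates on thinned cells, 3 in female-called cells, 3 without the 5 cells with most UMIs (an alternative chosen after seeing the data) and 2 at 2-fold. For adult WT over young WT, the 7 higher values became 4 without those 5 cells and 2 at 2-fold, and the 12 lower ones 6 with cells of 1 gate only, 7 with gates on thinned cells, 7 in female-called cells and 4 at 2-fold. The cause was not tested, except that a stricter fold calls fewer values by construction.

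Sign changes for Lang-DTA over adult WT, with cells of 1 gate only, gave Sfrp2 -0.85 in the Dpt gate and -1.24 in the other keratinocytes, and there Wif1 -0.28 and Dkk2 -2.69, and Lgr6 0.62 in the Prox1 gate. Without doublet calls, Dkk2 was -1.25 in the other keratinocytes, Lgr6 0.57 in the Prox1 gate, and in blood endothelium Wif1 -0.56, Dkk3 -0.35 and Lgr6 -0.13. Male-called cells gave Sfrp2 -0.59 in the Dpt gate, Dkk2 -2.42 in the other keratinocytes and Dkk3 -0.78 in blood endothelium. Female-called cells gave Dkk2 0.50 and Lgr6 1.93 in the Prox1 gate. Gates on thinned cells gave Sfrp2 -0.79 in the Col2a1 gate, and without the 5 cells with most UMIs Dkk2 was -0.014 in the other keratinocytes.

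For adult WT over young WT, cells of 1 gate only gave Wif1 0.36 in the other keratinocytes and 0.50 in the Prox1 gate, and Lef1 0.35 in the Prox1 gate. Female-called cells gave Sfrp2 -0.46 in the Dpt gate, Lef1 0.33 in the Prox1 gate and 0.29 in blood endothelium, and Lgr6 2.85 there. Gates on thinned cells gave Sfrp2 0.74 in the Col2a1 gate and Lgr6 0.65 in blood endothelium, which was 0.19 without doublet calls. Of the 27 values of called ratios that changed sign, 19 rest on under 100 UMIs over both libraries. At this depth a member under about 3 UMIs in a gate and library could not be told from 0.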

Other observations

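Some Wif1 lay outside all gates. Cells that met no gate and held under 2 Ptprc UMIs, 2097 in Lang-DTA, 1880 in adult WT and 1488 in young WT, held Wif1 at 447 CPM in Lang-DTA, 403 CPM in adult WT and 244 CPM in young WT, which was 25.1%, 35.1% and 9.90% of all Wif1 UMIs of those libraries. Dkk2 in the same cells stood at 49.2 CPM in Lang-DTA, 141 CPM in adult WT and 105 CPM in young WT, or 21.6%, 40.6% and 31.2% of its UMIs. The median depth of these cells was 6024, 5728 and 6248 UMIs, below that of the Dpt gate at 11241, 13946 and 16134 UMIs in the same order.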
